A study of Mus musculus with 36 samples.

Results

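Dusp1, Dusp6, Fos, Fosb, Jun, Junb, Egr1, Ier2, Atf3 and Myc, 10 genes of the immediate early response, were followed in primary mouse hepatocytes in which the levels of glucokinase (GK) and of its regulatory protein (GKRP) had been raised with adenoviral vectors. The genes were chosen by name, with earlier results of these data known, out of 52230 genes with a count. Of the 10, 9 were among the 12177 genes with enough reads to be tested. Fosb was not, with 0 to 8 reads in a library. The hepatocytes came from 3 female P446L mice aged 14 weeks. By the labels, the genotype was Gckr-446L in 2 mice (1 and 2) and Gckr-446P/L in the third, so genotype and mouse cannot be told apart. The methods of the study describe the mice as homozygous, which differs from the label of the third. All cultures were plated in medium with insulin and dexamethasone, kept for 24 h in 5 mM glucose with 10 nM of each hormone, and then held in 25 mM glucose for 4 h before RNA was taken. Cultures received no vector (untreated), a vector for human GKRP with proline or leucine at residue 446 (hP, hL), a vector for mouse GKRP with proline or leucine (mP, mL), a vector for GK alone (GK), or the GK vector with 1 of the 4 GKRP vectors (GK+hP, GK+hL, GK+mP, GK+mL). None of the cultures here carried an empty vector, so the presence of an adenovirus and what it encodes cannot be told apart in a comparison with untreated cells. The same holds for the added GKRP vector when GK with GKRP is compared with GK alone.

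GK phosphorylates glucose in the liver cell, and GKRP holds it, inactive, in the nucleus when glucose is low. Immediate early genes are transcribed within minutes of a stimulus, without the need for new protein, and most of their RNAs are short-lived. Fos, Fosb, Jun and Junb encode subunits of the AP-1 transcription factor, Atf3 encodes a stress-induced factor of the same bZIP class, Egr1 and Myc encode other transcription factors, and Ier2 encodes a nuclear protein induced with them. Dusp1 and Dusp6 encode dual-specificity phosphatases that switch off MAP kinases, the enzymes that carry the inducing signal. Dusp1 acts mainly on p38 and JNK in the nucleus and is also induced by glucocorticoids such as dexamethasone. Dusp6 acts on MAP kinases in the cytoplasm. Isolating hepatocytes with collagenase is itself known to induce this set.

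The promoters of both phosphatases and of Fos are shown because Dusp1 was the gene that changed and the other 2 are its nearest relative and the best known gene of the set. They are given from 250 bases before to 50 bases after the start, from RefSeq, whose table holds 7 of the 10 genes (not Egr1, Ier2 and Myc). The table's build is GRCm38.p6. Each sequence was found once in GRCm39, the build of the deposited files, at chr17:26727397-26727696 on the minus strand for Dusp1, chr10:99098843-99099142 on the plus strand for Dusp6 and chr12:85520414-85520713 on the plus strand for Fos. Capitals mark the core TGACG of the cAMP response element and the E-box CACGTG, on either strand.
Dusp1: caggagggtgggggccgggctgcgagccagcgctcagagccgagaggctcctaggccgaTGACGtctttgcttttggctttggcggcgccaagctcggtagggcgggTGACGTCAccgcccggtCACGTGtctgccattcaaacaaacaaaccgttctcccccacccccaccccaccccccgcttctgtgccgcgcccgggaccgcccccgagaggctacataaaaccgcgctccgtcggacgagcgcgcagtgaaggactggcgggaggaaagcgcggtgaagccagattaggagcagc
Dusp6: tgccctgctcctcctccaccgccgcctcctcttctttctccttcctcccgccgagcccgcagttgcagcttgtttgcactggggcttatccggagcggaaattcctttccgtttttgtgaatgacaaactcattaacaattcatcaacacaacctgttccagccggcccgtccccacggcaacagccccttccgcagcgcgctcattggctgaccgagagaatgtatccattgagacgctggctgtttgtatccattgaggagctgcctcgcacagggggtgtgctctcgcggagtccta
Fos: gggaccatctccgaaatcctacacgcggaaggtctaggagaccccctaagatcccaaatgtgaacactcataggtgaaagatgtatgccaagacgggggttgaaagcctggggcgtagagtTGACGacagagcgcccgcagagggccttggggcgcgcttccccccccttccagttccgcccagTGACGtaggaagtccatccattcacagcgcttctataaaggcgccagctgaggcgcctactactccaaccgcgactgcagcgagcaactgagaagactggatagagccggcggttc
The Dusp1 window held the whole cAMP response element TGACGTCA, which contains the core on both strands, 143 bases before the start, and the E-box 126 bases before it. The whole element was in 1.79% of 32851 promoters of the same length and the E-box in 7.15%, and Dusp1 was the only 1 of the 7 genes with either. The core was in 5 of the 7, Dusp1, Fos, Fosb, Junb and Atf3, and in 20.8% of all promoters. The CArG box bound by serum response factor was in none of the 7 windows and in 1.63% of all, and the AP-1 site TGANTCA was in none of the 7 and in 7.81% of all. The palindromic glucocorticoid response element was in none of the 7 and in 0.00913% of all, and its core AGAACA was in none of the 7 and in 19% of all. All motifs were searched on both strands, and a match is a description of these letters. Sites outside these windows, or in Egr1, Ier2 and Myc, were not searched.

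The 36 libraries held 3924674 to 10046158 reads, with a median of 5980276.5. The untreated and GK conditions had 2 cultures per mouse, which were summed, and the others had 1, giving 30 samples of 3 mice in each of 10 conditions. Levels are in CPM, read counts scaled to library size with TMM factors. Markers of hepatocytes (8 genes, among them albumin) summed to 73130 to 138500 CPM in every sample, and those of macrophages (8 genes) to 204.6 to 321.3, of endothelial cells (6) to 50.5 to 112.9, of stellate cells and fibroblasts (7) to 22.1 to 155.4, of cholangiocytes (4) to 7.2 to 22.2 and of lymphocytes (4) to 0.815 to 4.92. In bulk RNA, fewer cells of a type and less RNA per cell cannot be told apart. One culture with the GK vector alone, from mouse 3, held 1462 CPM of mouse Gckr against 51.8 to 98.0 in the other 5, so the results of Dusp1 that rest on GK alone are also given without it.

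Dusp1 was the most abundant of the 10. In CPM per kilobase of transcript, without TMM, which allows genes to be compared, untreated hepatocytes held 80.7 ± 5.8 of Dusp1 (SD, n = 3 mice), 25.1 ± 3.4 of Atf3, 24.7 ± 6.6 of Myc, 20.8 ± 4.7 of Dusp6 and 15.8 ± 1.9 of Jun. Ier2 (9.5 ± 3.4), Junb (9.0 ± 4.0) and Fos (4.0 ± 0.57) were lower, and Fosb (0.19 ± 0.045) and Egr1 (0.095 ± 0.056) were close to nothing. Among neighbours in this order, Dusp1 lay apart from Atf3 by far more than the SD, whereas Atf3, Myc and Dusp6 lay within an SD of each other, as did Ier2 and Junb. Reads in a library numbered 520 to 1525 for Dusp1 but 7 to 51 for Fos and 0 to 13 for Egr1, so Fos, Fosb and Egr1 rest on few reads.

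Dusp1 varied with the vectors. It was 128.8, 138 and 142.2 CPM in mice 1, 2 and 3 without vector and 167.8, 161.4 and 208.2 CPM with GK. With GK+hP it was 107, 97.1 and 127.8 CPM, and with GK+mP 103.7, 102.4 and 129.5 CPM. With GK+hL it was 156.2, 138.5 and 161.9 CPM, and with GK+mL 112.3, 139.1 and 153.3 CPM. Thus every GK sample lay above every untreated sample and above every sample with GK+hP, GK+mP or GK+mL, and only the GK+hL samples reached into the range of GK. Without the GK vector Dusp1 was 104.3, 94.9 and 122.6 CPM with hP, 121.8, 130.3 and 131.7 with hL, 99.0, 89.2 and 113.8 with mP, and 109.1, 105.9 and 128.8 with mL. All hP and mP samples were below all untreated samples, and the hL and mL samples overlapped them. The share of all genes whose groups did not overlap in these comparisons was not counted. By mean level the order was GK (179 ± 25 CPM), GK+hL (152 ± 12), untreated (136 ± 7), GK+mL (135 ± 21), hL (128 ± 5), mL (115 ± 12), GK+mP (112 ± 15), GK+hP (111 ± 16), hP (107 ± 14) and mP (101 ± 12; SD, n = 3 each), and each condition overlapped the next. Mouse 3 was the highest in 10 of 10 conditions, and 70.2% of the variance within conditions lay between mice, against a median of 42.5% over all genes tested.

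**Figure D1:**
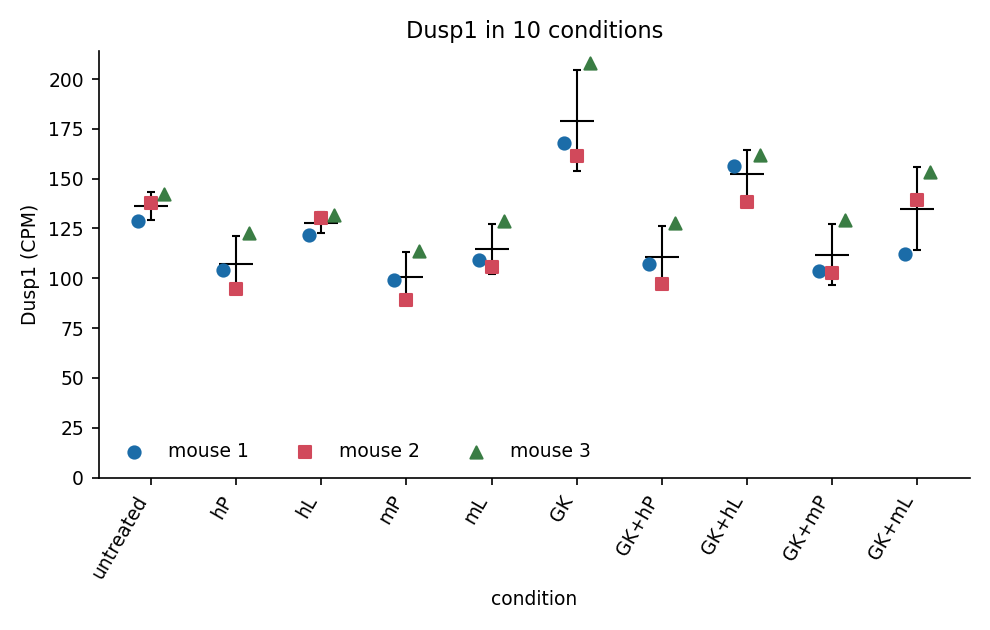
Dusp1 in CPM (vertical axis, from 0) in the 10 conditions (horizontal axis). Points are the 3 mice, the horizontal dash is the mean and the bar is the SD. The 3 GK samples sit between 161.4 and 208.2 CPM, above the untreated samples. The conditions with proline GKRP (hP, mP) have the lowest means, with and without GK, while their samples overlap some of those with leucine GKRP.

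The first question was whether raised GK changes these genes. A gene was called when edgeR's quasi-likelihood test gave an adjusted p under 0.05, with Benjamini-Hochberg adjustment over all genes, and the fold change reached 1.3 upward or 0.7 downward. Against the 5 conditions without the GK vector combined, Dusp1 rose 1.53-fold with GK, in 3 of 3 mice (log2 fold change 0.61, SE 0.12, adjusted p = 0.0101), and it was the only 1 of 9 genes called, where 0.427% of all genes were. Without the culture with Gckr reads the log2 fold change was 0.61 (edgeR adjusted p = 0.0106). Leaving out any 1 of the 3 mice left the change at 0.56 to 0.65 but not past the threshold, with adjusted p-values of 0.0904 to 0.443. Against untreated cells alone, where 0.00821% of all genes (1 gene) were called, Dusp1 was 1.31-fold higher (log2 fold change 0.39, SE 0.14) and was not called (edgeR adjusted p = 1), with 0.40 when the culture with Gckr reads was left out. The mice supplied every condition, and a model with a term for the mouse gave 0.38 for the same comparison, with an edgeR adjusted p of 0.0373, which passed, as did 42 genes higher and 2 lower over the whole table.

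The other 8 tested genes were not called with GK. Against the combined conditions Dusp6 was 1.16-fold higher (log2 fold change 0.22, 95% interval 0.00 to 0.43, edgeR adjusted p = 0.627, and 0.26 without the culture with Gckr reads) and Atf3 was 0.834-fold (-0.26, -0.54 to 0.02, adjusted p = 0.677). Jun was 1.06-fold, with an interval of the log2 fold change from -0.15 to 0.32, and Myc was 1.01-fold, from -0.42 to 0.45. The intervals of Fos (-0.91 to 0.70), Junb (-0.45 to 1.09), Ier2 (-0.87 to 0.72) and Egr1 (-2.71 to 1.45) were too wide to separate no change from a change of the size seen in Dusp1. Over the 9 genes the median log2 fold change was 0.02, against -0.01 for all genes tested. Egr1, at 11 reads over the 6 GK cultures, had the most negative value, -0.63, and Junb, the third in size, 0.32. A difference from untreated cells alone of 0.46 for Junb, -0.43 for Egr1 and 0.39 for Dusp1 were the 3 largest there.

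**Figure D2:**
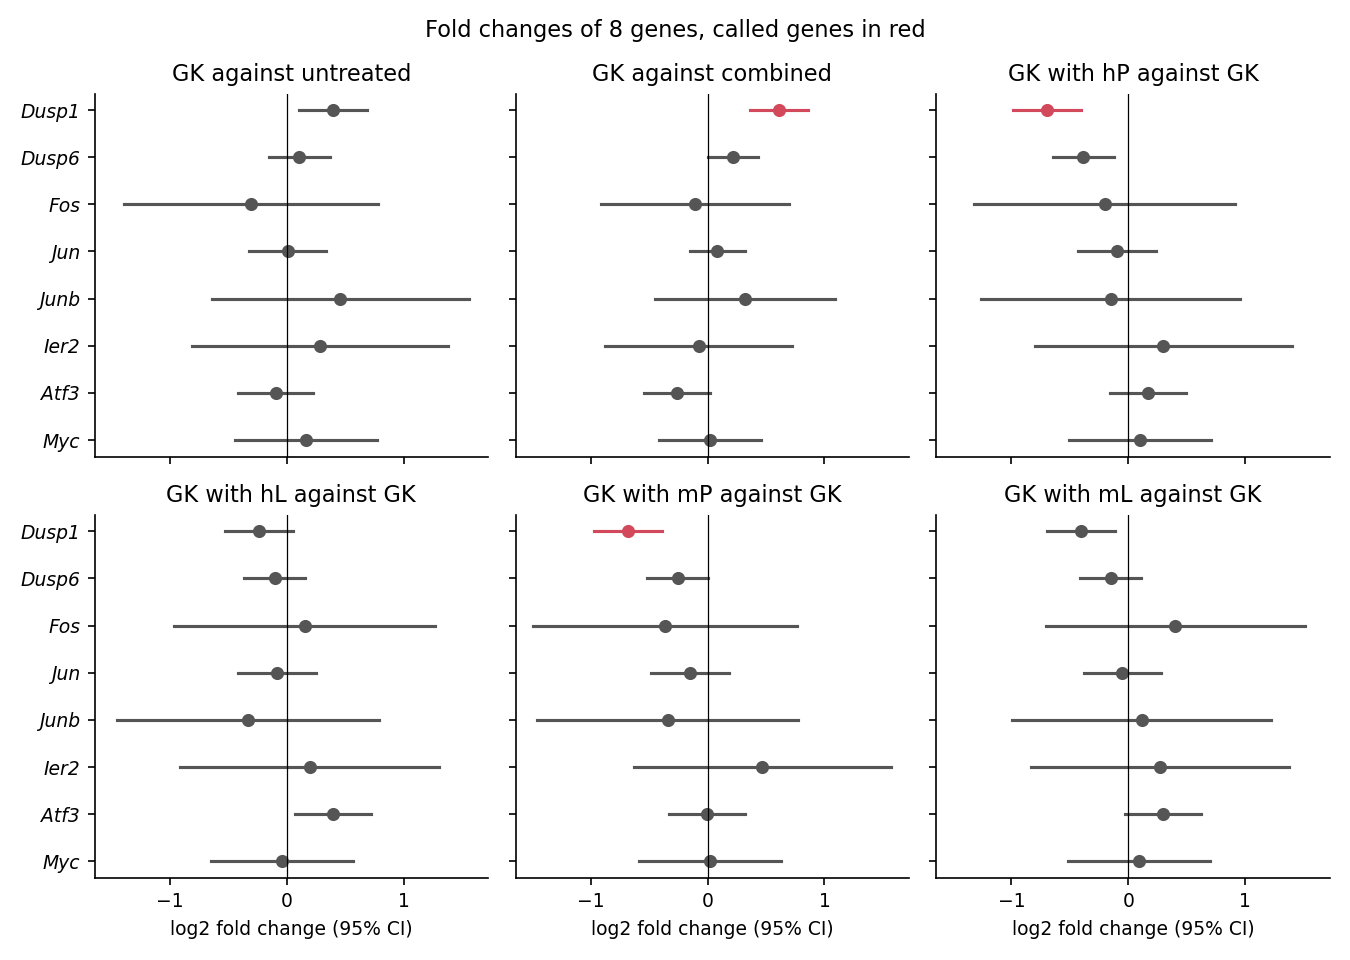
Log2 fold change (horizontal axis) with its 95% confidence interval for 8 genes (vertical axis) in 6 comparisons; Egr1 and Fosb are left out for their few reads. Called genes are red, and Dusp1 is red in 3 panels: higher with GK against the combined conditions (0.61) and lower with GK+hP (-0.69) and GK+mP (-0.68) against GK.

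The second question was what each GKRP does to cells with raised GK. These 4 comparisons share the GK samples, and each adds a GKRP vector with no empty vector to match it. Dusp1 fell with hP to 0.618-fold (log2 fold change -0.69, SE 0.14, edgeR adjusted p = 0.0117) and with mP to 0.624-fold (-0.68, SE 0.14, adjusted p = 0.00964), in 3 of 3 mice each. It was again the only 1 of the 9 called, beside 0.879% of all genes with hP and 1.64% with mP. The other genes among the 3 largest log2 fold changes of the 9 were Egr1 with each GKRP vector (0.78 to 2.02), Dusp6 with hP (-0.39), Atf3 (0.40) and Junb (-0.33) with hL, Ier2 with mP (0.47) and Fos with mL (0.40), none of them called. With the leucine forms, Dusp1 was 0.85-fold with hL (-0.23, 95% interval -0.53 to 0.06, adjusted p = 0.874) and 0.753-fold with mL (-0.41, -0.70 to -0.12, adjusted p = 0.343), and 0 of 9 genes were called by edgeR, beside 0.599% and 0.591% of all genes. At an unadjusted p under 0.05 there was 1 of 9 in each, Atf3 with hL and Dusp1 with mL, and DESeq2 called 0. Of all 12177 genes, 472 higher and 367 lower had such an edgeR p with hL, and 528 and 278 with mL. With mL Dusp1 was lower in 3 of 3 mice, and with the mouse as a term its fall of -0.41 passed the p threshold (edgeR adjusted p = 0.00672) and missed the fold limit, while with hL it was -0.23 (adjusted p = 0.163). Over the mean of the 4 GKRP vectors, where 1.61% of all genes were called, Dusp1 was 0.705-fold (-0.50, SE 0.11, adjusted p = 0.0103), which passed the p threshold and missed the fold limit. In the fits of GK and 1 GKRP condition alone, 6 samples each, the falls with hP and mP were as large (-0.70 and -0.69) but not past the threshold (adjusted p = 0.296 and 0.535). Without any 1 mouse they lay between -0.68 and -0.72 and between -0.68 and -0.69, with adjusted p-values of 0.0930 to 0.243 and 0.0766 to 0.175. Without the culture with Gckr reads they were -0.70 and -0.68, both past the threshold, and the differences with hL and mL and over the mean of the 4 were -0.24, -0.41 and -0.51. The summed level of 8 heat shock and dissociation stress genes was 3219 to 5123 CPM with GK and 4087 to 9025 over the 4 conditions with GK and GKRP. None of the 8 was called there by edgeR, while over all 16 comparisons DESeq2 made 6 calls among them and edgeR with the mouse as a term 41. Their part in the result was not tested.

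Dusp6 (ENSMUSG00000019960, chr10:99086564-99103361, plus strand of GRCm39) was 39.8, 43.96 and 42.7 CPM with GK and 31.4, 32.2 and 33.1 CPM with GK+hP, in mice 1, 2 and 3. The groups did not overlap, but the change to 0.765-fold (log2 fold change -0.39, SE 0.13) was not called (edgeR adjusted p = 0.260), and was -0.43 without the culture with Gckr reads. With GK+mP it was 31.7, 38.3 and 36.0 CPM, also below every GK sample (-0.26, adjusted p = 0.452). Separations of this kind were not counted over all genes. With GK+hL and GK+mL the samples overlapped those of GK, at -0.10 and -0.15. Dusp6 thus held the same rank order of conditions as Dusp1 at its top, GK then GK+hL then untreated, over a smaller range, from 32.2 to 42.2 CPM by mean where Dusp1 ran from 101 to 179. The condition means of both genes correlated at r = 0.88 over the 10 conditions. After the means of condition and mouse were taken out r was 0.12 (n = 30 samples). A high r of condition means was not particular to this pair. Those of Jun correlated with Dusp1 at 0.83 and with Dusp6 at 0.77, and those of Egr1 at -0.43 and -0.68.

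At endogenous GK none of the 9 genes was called with any GKRP vector by edgeR without a mouse term or by DESeq2, where 0.78% of all genes were called with hP, 0.879% with hL, 1.12% with mP, 1.05% with mL and 1.89% for the mean of the 4. At an unadjusted edgeR p under 0.05 there was 1 of 9 with hP (Dusp1), 1 with hL (Atf3), 2 with mP (Dusp1 and Dusp6), 0 with mL and 1 for the mean (Dusp1). Of all 12177 genes, 460 higher and 279 lower had such a p with hP, and 573 and 332 with hL. The counts were 549 and 307 with mP, 528 and 288 with mL, and 654 and 486 for the mean. Dusp1 was 0.787-fold with hP (log2 fold change -0.35, adjusted p = 0.589), 0.739-fold with mP (-0.44, adjusted p = 0.214), 0.939-fold with hL (-0.09) and 0.841-fold with mL (-0.25). With the mouse as a term the values of Dusp1 with hP (-0.35, edgeR adjusted p = 0.0182), with mP (-0.44, adjusted p = 0.00238) and for the mean of the 4 (-0.29, adjusted p = 0.00650) passed the p threshold and missed the fold limit, and Atf3 was called with hL. Egr1 (1.18) and Ier2 (0.41) with hP, Egr1 (-0.83) and Ier2 (0.46) with hL, Ier2 (0.52) and Fos (-0.49) with mP, and Ier2 (0.40) and Fos (-0.39) with mL were among the 3 largest log2 fold changes of the 9 and lay within their errors. Whether GKRP changes a gene differently with and without the GK vector was tested as an interaction. For Dusp1 the difference of the 2 log2 fold changes was -0.22 (95% interval -0.55 to 0.10, edgeR adjusted p = 1). No gene of the 9 passed, also not at an unadjusted p under 0.05, and 0% of all genes did by edgeR, with 86 higher and 92 lower at an unadjusted p under 0.05 and 20 called by DESeq2 (18 higher and 2 lower). In the 4 conditions with GKRP, adding GK made Dusp1 1.13-fold higher (0.17, SE 0.07, adjusted p = 0.723), where 0.0164% of all genes were called.

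The third question was whether leucine in place of proline at residue 446 matters. With GK, Dusp1 was 1.38-fold higher with hL than with hP (log2 fold change 0.46, SE 0.14, edgeR adjusted p = 1) and the samples did not overlap. With the mouse as a term it was 0.47 and passed (edgeR adjusted p = 0.0209), as did 16 genes in all, while in the fit without it 0% of all genes passed (128 higher and 127 lower at an unadjusted p under 0.05, and 3 higher and 8 lower called by DESeq2). Dusp6 (0.28) and Atf3 (0.23) were also higher in every hL sample than in every hP sample with GK, with edgeR adjusted p-values of 1. How many of all genes separated the same samples in this way was not counted. For mL against mP with GK, where 0.0164% of all genes were called, Dusp1 was 1.21-fold higher (0.27, 95% interval -0.02 to 0.56, adjusted p = 1). Egr1 (-1.06) and Fos (0.36) were the others among the 3 largest for hL against hP. The 3 largest differences for mL against mP were Fos (0.76), Junb (0.45) and Egr1 (-0.36), each with a 95% interval that held 0, and Fos was higher in 3 of 3 mice.

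The 4 leucine conditions stood above the 4 proline conditions by mean for Dusp1, Dusp6 and Atf3, and for no other of the 10. This order was seen in the levels and then tested on the same samples. For Dusp1 the leucine means ran from 114.6 to 152.2 CPM and the proline means from 100.7 to 111.8 CPM. For Dusp6 they ran from 37.9 to 39.3 and from 32.2 to 35.3 CPM, and for Atf3 from 37.8 to 42.9 and from 30.7 to 36.6 CPM. Within each mouse and pair of vectors, leucine was the higher in 12 of 12 pairs for Dusp1, by 0.10 to 0.55 on the log2 scale, and in 12 of 12 for Atf3, by 0.08 to 0.60. It was the higher in 10 of 12 for Dusp6. The counts for the others were 8 of 12 for Fos, 7 for Jun and for Myc, 5 for Junb and 4 for Ier2. Those of Egr1 and Fosb, with few reads, are not given. Pairs of a mouse share its cells, so the 12 are not independent. The share of all genes tested with this order of means, or with 12 of 12 pairs, was not counted. Over all 4 pairs of conditions the log2 difference was 0.29 for Dusp1 (SE 0.07, 1.23-fold), 0.26 for Atf3 (SE 0.08, 1.2-fold) and 0.22 for Dusp6 (SE 0.06, 1.16-fold). None passed the adjustment in this fit (edgeR adjusted p = 0.436, 0.873 and 0.816), where 0.00821% of all genes were called. With the mouse as a term Dusp1 (adjusted p = 0.000279) and Atf3 (adjusted p = 0.00811) passed the p threshold and Dusp6 did not (adjusted p = 0.0710), all under the fold limit of 1.3, in a fit that called 59 genes (0.485%) higher and 0 lower. In the authors' TPM, leucine was the higher in only 6 of 12 pairs for Dusp1, 6 for Dusp6 and 7 for Atf3, and with a transcript length offset the log2 differences were 0.28, 0.54 and 0.29 (edgeR adjusted p = 0.933, 0.933 and 0.960). Gckr itself was 13690 to 23270 CPM with mP and 11180 to 17340 with mL, and with GK 14370 to 20190 and 8934 to 14450, and human GKRP is not counted by mouse transcripts. The part of vector RNA in the difference was not tested.

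**Figure D3:**
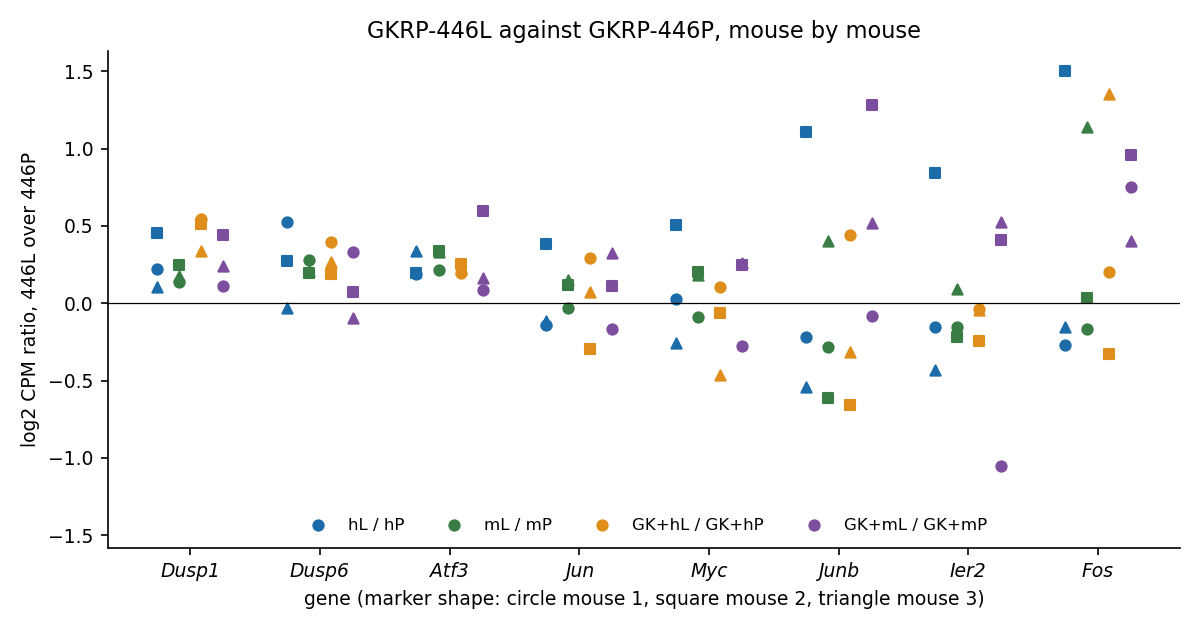
Log2 ratio of CPM, leucine over proline GKRP (vertical axis), for 8 genes (horizontal axis), 1 point for each mouse and pair of conditions; colours are the 4 pairs and shapes the 3 mice. All 12 points lie above 0 for Dusp1 and Atf3 and 10 of 12 for Dusp6, while Junb, Ier2 and Fos scatter on both sides.

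Atf3 (ENSMUSG00000026628, chr1:190902493-190950241, minus strand of GRCm39) differed from Dusp1 in its order of conditions. It was 28.6, 40.1 and 29.8 CPM in untreated mice 1, 2 and 3, 43.1, 48.7 and 36.9 with hL, 29.8, 32.6 and 29.96 with GK and 39.6, 44.4 and 37.5 with GK+hL. The GK+hL samples lay above all GK samples, and within every mouse hL lay above untreated. Neither order was counted over all genes. The changes were 1.32-fold with GK+hL against GK (log2 fold change 0.40, SE 0.16, edgeR adjusted p = 0.507) and 1.31-fold with hL against untreated (0.38, SE 0.16, adjusted p = 0.503). With the mouse as a term both passed, at 0.39 with adjusted p = 0.0266 and 0.39 with adjusted p = 0.0234 in edgeR, in fits that called 309 and 362 of 12177 genes. With the transcript length offset the same values were 0.020 and -0.021. Mouse 2 had the highest Atf3 in 9 of 10 conditions, and 67.3% of the variance within conditions lay between mice. The highest mean was with hL (42.9 ± 5.9 CPM) and the lowest with GK+mP (30.7 ± 3.0 CPM), 1.4-fold apart, and GK alone (30.8 ± 1.6 CPM) was at this low end, where it was at the top for Dusp1.

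Junb, Ier2 and Fos varied widely between mice and cultures. Junb was 39.3, 17.7 and 10.6 CPM in mice 1, 2 and 3 with GK and 23.3, 17.2 and 8.8 CPM untreated. Ier2 was 31.2, 14.02 and 8.4 CPM with GK and 19.8, 14.3 and 9.8 CPM untreated. Mouse 1 was the highest in 5 of 5 conditions at endogenous GK for Junb, Ier2 and Myc. In the 4 conditions with GK and GKRP it was the highest in 2, 3 and 2. Fos was lowest in mouse 3 in 9 of 10 conditions. The SD within conditions was 0.70 (log2) for Junb, 0.67 for Ier2 and 0.69 for Fos, against 0.17 for Dusp1, 0.15 for Dusp6, 0.19 for Atf3, 0.20 for Jun and a median of 0.31 over all genes tested. Even paired cultures, 2 dishes of 1 mouse under 1 condition, differed in Junb by a median of 0.64 on the log2 scale, against 0.12 for Dusp1 and 0.18 for the median gene. Myc ran from 37.7 to 79.95 CPM over the 30 samples with 71.4% of the variance within conditions between mice, and its condition means only from 53.1 to 64.0 CPM. Jun had the smallest ratio of highest to lowest condition mean in the set, 1.12, from 45.7 to 51.4 CPM. Egr1 held 25 reads in the 3 GK+hP cultures, 1.19, 1.13 and 1.57 CPM, and 11 in the 6 GK cultures, 0.817, 0.145 and 0 CPM. Its log2 fold change of 2.02 (SE 1.27) was not called. Fosb was at or under 1.1 CPM in every sample.

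**Figure D4:**
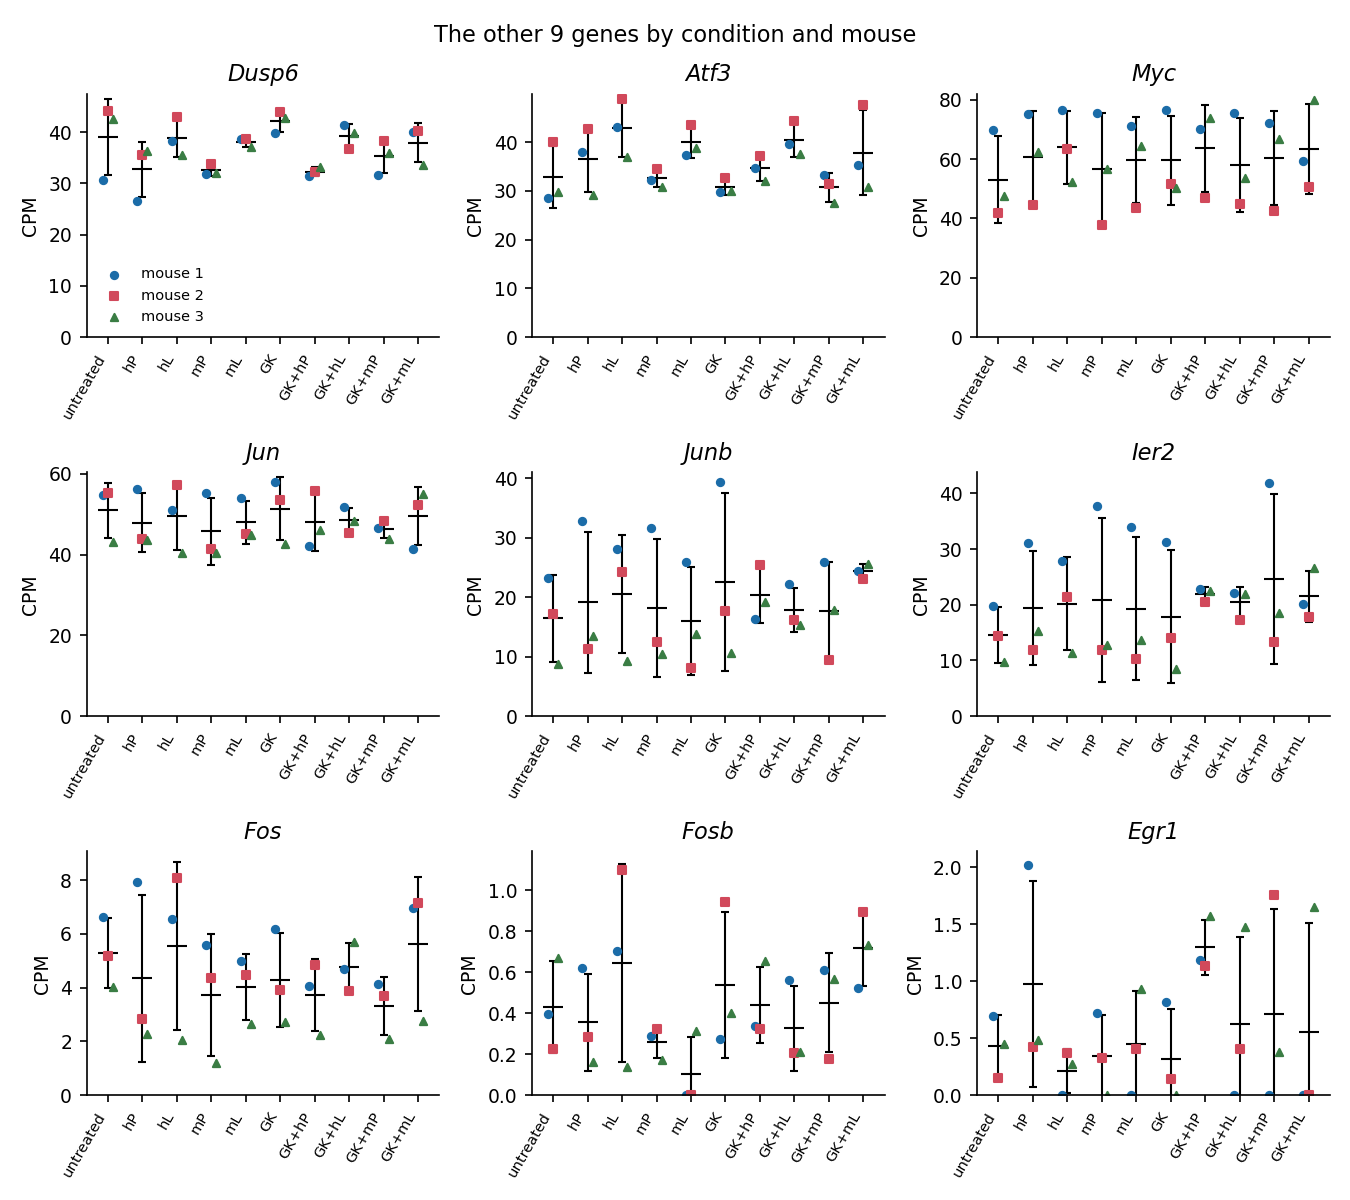
CPM (vertical axes, from 0, a scale for each gene) of the other 9 genes in the 10 conditions. Points are mice, dashes means and bars SD, drawn down to 0. In Junb, Ier2 and Myc mouse 1 is the highest in each condition at endogenous GK. The leucine conditions sit above their proline partners by mean in Dusp6 and Atf3.

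Junb, Ier2, Jun and Myc moved together from sample to sample. After the means of condition and mouse were taken out of the log2 CPM, Junb and Ier2 correlated at r = 0.89, Jun with Junb at 0.84 and with Ier2 at 0.83, and Myc with Jun, Junb and Ier2 at 0.75, 0.73 and 0.71 (n = 30 samples). Dusp1 followed Myc (0.64) and Jun (0.48) more loosely and Junb at 0.39, with deviations that were small beside theirs. Dusp6 stood apart, at -0.19 to 0.14 with Jun, Junb, Ier2, Atf3 and Myc. These are descriptions over samples that share mice and libraries.

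**Figure D5:**
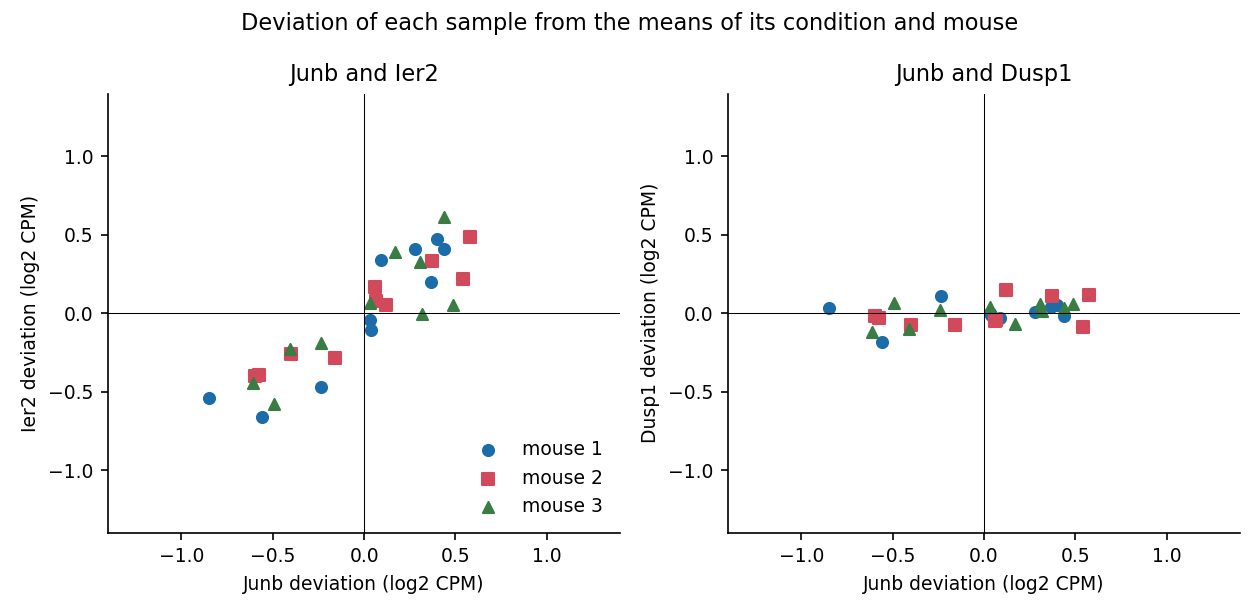
Deviation of each of the 30 samples from the means of its condition and mouse, in log2 CPM, for Junb against Ier2 (left) and Junb against Dusp1 (right); colours and shapes are mice. Junb and Ier2 deviate together (r = 0.89), and Dusp1 spreads little over the same range of Junb (r = 0.39).

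Other genes of the response and of the MAP kinase pathway gave few calls. Of 40 further immediate early genes 34 were tested, and Zfp36l1, which encodes an RNA-binding protein that shortens the life of AU-rich RNAs, was the only 1 called in any comparison by edgeR or DESeq2. With the mouse as a term edgeR made 21 calls in 7 of the 34, Ccn1, Zfp36l1, Klf4, Ier3, Btg2, Ppp1r15a and Zfp36l2. It was 165.1, 126.2 and 115 CPM with GK, 90.6, 90.2 and 78.8 with GK+hP and 83.2, 78.3 and 79.9 with GK+mP. It fell to 0.639-fold with GK+hP (log2 fold change -0.65, edgeR adjusted p = 0.0408) and to 0.594-fold with GK+mP (-0.75, adjusted p = 0.00808) against GK, and to 0.631-fold with mP against untreated (-0.66, adjusted p = 0.0285). With GK alone its log2 fold change against untreated was 0.03 (SE 0.15). The median log2 fold change of the 34 was 0.05 for GK against the combined conditions, -0.10 with GK+hP and -0.16 with GK+mP against GK, where all genes tested had -0.01, 0 and 0.03. None of 16 tested MAP kinase phosphatases and feedback inhibitors (of 19, such as Dusp4, Spry2 and Spred1), of 33 members of the MAP kinase cascade and the transcription factors below it (such as Elk1 and Srf), or of 11 glucocorticoid responsive genes (such as Fkbp5 and Tsc22d3) was called in any of the 16 comparisons by edgeR. Over all genes and comparisons of each list, 19 of 256, 16 of 528 and 9 of 176 tests had an unadjusted edgeR p under 0.05, DESeq2 called 1, 0 and 0, and edgeR with the mouse as a term called 5, 8 and 10. Of 12 glucose responsive genes, such as Txnip and Klf10, 11 were called higher with GK against the combined conditions and 9, 4, 9 and 0 lower with GK+hP, GK+hL, GK+mP and GK+mL against GK. The median log2 fold changes of these 12 were -1.96, -1.51, -1.85 and -0.63, beside -0.69, -0.23, -0.68 and -0.41 for Dusp1. The study named many of these, among them Pklr, Tkfc, Rgs16, Angptl8 and Slc25a47, from these same samples for moving with GK and GKRP, so their counts and medians are not independent evidence. Of 8 heat shock genes, Hspa1a was called higher with hL against untreated (6.96-fold, edgeR adjusted p = 0.0292) and, averaged over the 4 GKRP conditions at endogenous GK, against untreated (5.04-fold, edgeR adjusted p = 0.0236).

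The genes most like Dusp1 over the 30 samples, by Pearson's r of log2 CPM and without the 10 genes, were Pklr (0.76), which encodes liver pyruvate kinase, Trim7 (0.75), Txnip (0.74), Klf10 (0.74) and Arrdc4 (0.72). After the means of condition and mouse were taken out, r was 0.41, 0.39, 0.01, -0.03 and 0.06, so for the last 3 the likeness lay in the condition and mouse means. The genes most like Fos were Gulo (0.75), Miga1 (0.75), Alas1 (0.75), Gm48274 (0.73) and Tbc1d17 (0.73), with 0.31, 0.51, 0.33, 0.16 and 0.51 after centring.

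Dusp1 (ENSMUSG00000024190) is annotated at chr17:26724564-26781102 on the minus strand of GRCm39, a span that includes a readthrough transcript with 0.0724% of its reads. Its reads were assigned to the coding transcripts Dusp1-206 (1587 bases, 55.3%) and Dusp1-202 (1990 bases, 36.6%) and to a pair of retained-intron transcripts (5.05% and 2.9%). In CPM without TMM, Dusp1-206 was 74.4 ± 15.6 untreated and 92.2 ± 14 with GK, and Dusp1-202 was 47.8 ± 7.3 and 65.9 ± 10.3 (SD, n = 3 mice), so both were higher by mean. Reads assigned to retained introns were 9.65 ± 2.83% of the gene untreated, 9.23 ± 1.61% with GK, 5.16 ± 1.17% with GK+hP and 5.13 ± 1.00% with GK+mP. They were lower in each GK+hP and GK+mP sample (3.95% to 6.3%) than in each GK sample (7.51% to 10.7%). This difference was not tested, and such separations were not counted over all genes. Low shares were also seen without the GK vector, with means of 5.62% with hP and 5.36% with mL, beside 7.54% with mP and 9.2% with hL. With GK+hL and GK+mL the means were 7.74% and 8.61%. The split between overlapping transcripts of 1 gene is Salmon's estimate and swung between mice, with Dusp1-202 at 26.5 to 86.8 CPM in the 3 GK+hL samples. In the authors' TPM, which divides by a length corrected for fragment size, Dusp1 was 67.9 ± 5.6 untreated and 125 ± 19 with GK, a mean ratio within mice of 1.87 where CPM gave 1.31. At endogenous GK its TPM was 76.1 ± 21.5 with hP and 84.5 ± 10.3 with hL, above untreated by mean where CPM had both below it. The mean fragment length implied by the files varied from 154.1 to 852.5 bases between libraries.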

How the data were processed

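RNA from 36 cultures of hepatocytes of 3 mice was sequenced. The authors ran Salmon 1.4.0 against mouse transcripts (GRCm39) and deposited, for each transcript, its expected count (an estimated count of reads, not normalized) and its TPM, normalized within the library. Replicates were not pooled. Expected counts were summed per gene with a later Gencode release of the same build, which matched 98.8% of the transcripts, and rounded. The unmatched held 0.392% to 0.639% of the reads. Paired cultures, 2 dishes of 1 mouse under 1 condition, were added up, so that n is 3 mice. Between libraries Salmon's correction for fragment length differed widely, so CPM was used for levels and TPM as an alternative.

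Tests used edgeR 4.0.16 in R 4.3.3 (filterByExpr by condition, TMM, glmQLFit and glmQLFTest, Benjamini-Hochberg over 12177 genes) in a model of 10 conditions. GK against the 5 conditions at endogenous GK used a model of 6 groups. The standard error is the size of the log2 fold change divided by the square root of F, and intervals are 95%. Log2 CPM had a prior count of 2. The script was tested on simulated data. DESeq2 1.42.0 was an alternative, as were RLE scaling, other filters, single cultures, a transcript length offset, the groups compared alone and leaving out a mouse or the culture with Gckr reads.

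By the labels the same 3 mice supplied every condition, and samples were paired by mouse. Deviations from condition means had a mean correlation of 0.223 between samples of 1 mouse and -0.110 between mice, and 82.2% of 135 pairs within a mouse were over 0.1. The main model had no mouse term, as the study's methods name none, and the model with it was an alternative.

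The 10 genes, the lists and the alternatives were chosen with earlier results of these data known, and the comparison of leucine with proline over 4 pairs was added after the levels were seen. Each of the 10 genes was named where called or among the 3 largest log2 fold changes. From other lists up to 3 called genes were named, and for Dusp1 and Fos the 5 genes of highest r. Promoter sequences are from RefSeq.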

Additional observations from a re-analysis of the deposited data

Results flagged for a closer look

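Among the 2 conditions with 6 cultures, Dixon's test found no outlying culture for any of the 10 genes. The 1 value that stood out was Gckr at 1462 CPM in a culture of mouse 3 with the GK vector alone, where the other 5 held 51.8 to 98.0 CPM. The same test was run on 22 groups, and chance flags about 1 in 20. Dusp1 in that culture was 207.7 CPM, beside 210.1 CPM in the other GK culture of the same mouse.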

How the results depend on the processing

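The fitted direction of Dusp1 was the same under 12 alternatives in each of the 16 comparisons, while its mean TPM with hP and hL lay above untreated. With GK against the combined conditions Dusp1 stayed the gene called under 8 of 12 alternatives, and with GK+hP and GK+mP against GK under 7 of 12 each. For GK against the combined conditions, the alternative of only the groups compared left out no sample. It was a fit of the 10 conditions over all 30 samples, so it is no restriction to those groups. The count of the 9 genes called in these 3 comparisons went from 1 to 0 with the transcript length offset, and in the GK+hP and GK+mP comparisons also with only the groups compared. Leaving out 1 mouse, which leaves fewer samples, gave 0 to 0 in all 3. Counts went from 0 to 1 with the replicate block, the mouse as a term, for GK against untreated (Dusp1), GK+hL against GK (Atf3), hL against untreated (Atf3) and hL against hP with GK (Dusp1). It also went from 0 to 1 with no filter on low counts for the mean of 4 GKRP with GK (Dusp1, log2 fold change -0.55). The replicate block changed no other call of the 10 genes. With the transcript length offset the sign turned in 0 of 16 comparisons for Dusp1 but in 7 of 16 each for Dusp6, Atf3 and Jun, 5 for Myc, 4 for Fos, 2 each for Junb and Ier2 and 0 for Egr1. Among these were Dusp6 with GK against combined (-0.10), with mP against untreated (0.11) and with GK+hL against GK (1.10), and Atf3 with hL against untreated (-0.021) and with GK+hP against GK (-0.39). The offset uses lengths that rest on the fragment length Salmon implied for each library. The ratio of Dusp1 with GK to untreated was 1.87 in TPM and 1.31 in CPM. The cause was not tested for any of these. Calls over all genes rose with the replicate block, from 52 to 242 with GK against combined, from 107 to 398 with GK+hP and from 200 to 775 with GK+mP against GK, and from 1 to 44 with GK against untreated. DESeq2 called 165, 175, 323 and 32 there. With GKRP at endogenous GK they rose from 95 to 299 (hP), 107 to 362 (hL), 136 to 403 (mP) and 128 to 385 (mL), and with GK from 73 to 309 (GK+hL) and 72 to 273 (GK+mL). Few reads limit Fos, Egr1 and Fosb.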

Other observations

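Paired cultures, 2 dishes of 1 mouse under 1 condition, allow the spread between dishes to be set beside the differences above. For Dusp1 the 6 pairs differed by at most 0.24 on the log2 scale, beside differences between GK and untreated of 0.38, 0.23 and 0.55 in mice 1, 2 and 3. The largest pair difference was 1.01 for Junb, 0.86 for Fos and 0.84 for Ier2. Zfp36l1, the only other immediate early gene called by edgeR without a mouse term or by DESeq2, was 132.6 ± 27.9 CPM untreated and 135.5 ± 26.3 CPM with GK (SD, n = 3 mice), and 80.5 to 106.7 CPM by mean in the 8 conditions with a GKRP vector, with or without GK.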
